A study of Mus musculus with 18 samples.

Results

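The mouse genes described here encode voltage-gated sodium channels, voltage-gated calcium channels and potassium channels, with the accessory subunits named in the same potassium channel series. They were chosen by symbol alone: an alpha subunit symbol of the Scn or Cacna1 series, or any symbol of the Kcn series followed by a subfamily letter and a number, carried by an array cluster annotated to exactly 1 gene. Of 22180 genes with such a cluster, 107 met the rule. They comprised 8 sodium channel genes, 10 calcium channel genes, 26 genes of pore-forming voltage-gated potassium (Kv) channels, 10 genes of electrically silent Kv subunits, 14 inward rectifier (Kir) genes, 13 genes of leak channels with a pair of pore domains per subunit (K2P), 8 genes of calcium- or sodium-activated potassium channels, 16 auxiliary subunit genes and 2 noncoding transcripts named after channel genes. Kcnj13 and Kcnk3 have only a cluster shared with another gene and were not analysed here.

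Voltage-gated sodium channels carry the upstroke of the action potential, voltage-gated calcium channels couple depolarisation to transmitter and hormone release, and potassium channels set the resting potential, end each spike and shape the firing pattern. Neurons of the hypothalamus and the endocrine cells of the anterior pituitary are both electrically excitable, and pituitary cells use calcium-dependent action potentials to control hormone secretion. Granulosa and luteal cells of the ovary fire no neuron-like spikes, but the ovary holds smooth muscle, blood vessels and oocytes that use potassium channels for their membrane potential.

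The study used female BABL/c mice, as the labels spell the strain, from 10 littermate pairs split at random into a control and a stress group at 6 weeks of age. The stress group was carried over 1000 km in nearly 10 h, at 50 km/h on average as the labels put it, and returned to the laboratory where both groups were housed. All mice were superovulated at 9 weeks. In each of the 6 groups (control or stress, in hypothalamus, pituitary or ovary) 3 arrays were run: the mouse with the most oocytes of its treatment (high), the mouse with the fewest (low), and a pool of the other 8 mice.

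Total RNA was hybridised to 18 Affymetrix Mouse Gene 2.0 ST arrays, and every value below is the deposited log2 signal, in which a difference of 1 is 2-fold. Depth does not apply to arrays; their number limits the precision. The 2 single mice of a group were selected for extreme oocyte yield and the pool averages 8 mice, so the spread within a group is not that of randomly drawn mice. The median over all clusters of an array lay between 4.75 and 5.03. No detection calls were used; as a background mark, the 95th percentile of the tissue mean over 1432 odorant, vomeronasal and taste receptor genes was 4.53 for hypothalamus arrays, 4.65 for pituitary arrays and 4.52 for ovary arrays. A difference against a tissue whose mean is below that mark is a difference of array signals, and the true ratio behind it was not measured.

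The tissue labels were checked against defining genes. All 8 measured hypothalamic markers (such as Pmch and Avp) were higher on every hypothalamus array than on any other array, as were all 8 measured pituitary markers on the pituitary arrays and 8 of 9 ovarian markers on the ovary arrays, Amh being the exception. Several pools stood apart from the single mice. Ovarian markers averaged 6.82 in the stressed pituitary pool against 4.80 to 5.08 on the other 5 pituitary arrays, with a summed linear signal of 324 to 451 on the control and 331 to 3962 on the stress arrays and 0 of 9 markers lower under stress. They averaged 6.11 in the stressed hypothalamus pool against 4.75 to 5.09 on the other hypothalamus arrays. Pituitary markers averaged 6.48 and 6.93 in the control and stressed ovary pools against 4.40 to 4.73 in the single-mouse ovaries, with summed signals of 218 to 3157 on the control and 177 to 4589 on the stress arrays. No marker of these lists was at 0 on any array, but the lowest value of any cluster was 0.4, so that says nothing about presence. Lead counts are therefore also given without the 6 pool arrays.

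In level, the channel genes were above the background mark more often in hypothalamus than in ovary. In hypothalamus 92 of 107 members (86.0%) were above it, against 67.1% of all genes, in pituitary 85 (79.4%) against 66.0%, and in ovary 72 (67.3%) against 66.6%. The 10 members above it in no tissue were Scn11a, Kcna10, Kcne1, Kcne2, Kcnj1, Kcnk7, Kcnk18, Kcnmb3, Kcnu1 and Kcnv2.

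Between tissues, most called differences ran from hypothalamus down to ovary. A call needed a Benjamini-Hochberg adjusted p under 0.05 over all 22180 genes and at least a 2-fold difference, in a limma fit on all 18 arrays with the animal or pool as a random block. Against pituitary, 40 members were higher in hypothalamus (8.47% of all genes were) and 4 were lower (5.91% of all genes). Against ovary, 49 members were higher in hypothalamus (11.2% of all genes) and 4 lower (11.3%). In pituitary, 31 members were higher than in ovary (7.54% of all genes) and 8 were lower (8.51%). The median difference over the members was 0.42 for hypothalamus minus pituitary, 0.89 for hypothalamus minus ovary and 0.44 for pituitary minus ovary, beside -0.04, -0.03 and 0.01 over all genes. At an adjusted p under 0.05 with no demand on size, 55 members were higher and 18 lower in hypothalamus than in pituitary (19.6% and 19.9% of all genes), and 55 were higher and 12 lower in pituitary than in ovary (19.2% and 21.8% of all genes). In bulk tissue, fewer cells of a type and less RNA per cell cannot be told apart.

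Most genes above both other tissues were hypothalamic. In hypothalamus 36 members were called higher than in both pituitary and ovary (33.6%, beside 6.49% of all genes). For 35 of these every hypothalamus array lay above every other array. The calls came from the same arrays, so this separation is no further support. Its share over all genes is not given. In pituitary 3 members were above both other tissues (2.07% of all genes): Cacna1d, Kcnh8 and Kcnmb2. In ovary 3 members were (6.42% of all genes): Kcnk5, Kcne3 and Kcnmb1. Without the pools the counts were 36, 4 and 5. Kcnf1 entered and Kcnk4 left in hypothalamus, Scn7a entered in pituitary, and Kcnab3 and Kcnt2 entered in ovary. The clusters of Kcnab3 disagree. Its cluster of highest mean, used here, read 6.611, 4.794 and 7.445 in hypothalamus, pituitary and ovary, pools included. Its other cluster read 5.228, 5.961 and 5.738, highest in pituitary. The calls of Kcnab3 as lower in pituitary than in hypothalamus and ovary also rest on the cluster used.

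**Figure D1:**
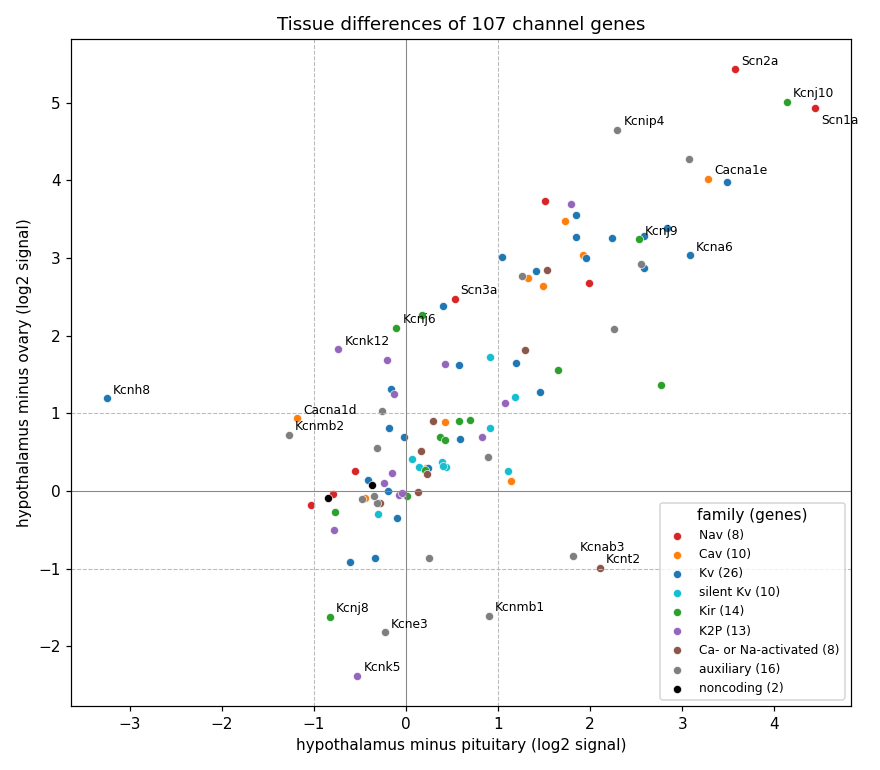
Each point is 1 of the 107 channel genes, with its hypothalamus minus pituitary difference (log2 signal) on the x axis and its hypothalamus minus ovary difference (log2 signal) on the y axis, coloured by family. Most points lie to the upper right; Kcnh8 stands alone on the left at -3.25, and Scn1a, Kcnj10 and Scn2a reach differences over 3 on both axes.

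The 107 members followed few patterns. A graded order, called at each step from hypothalamus to pituitary to ovary, was found for 17 members (15.9%, beside 1.75% of all genes): Scn2a, Scn8a, Cacna1a, Cacna1b, Cacna1g, Cacna1i, Kcna2, Kcna3, Kcnc4, Kcnd2, Kcnh5, Kcnh7, Kcnk9, Kcnn3, Kcnip1, Kcnip2 and Kcnip4. A further 11 members (10.3%, beside 2.74% of all genes) were above ovary in both hypothalamus and pituitary with no call between these: Scn3a, Kcna5, Kcnb2, Kcnd3, Kcnj3, Kcnj6, Kcnk1, Kcnk2, Kcnk10, Kcnk12 and Kcnip3. No contrast was called for 46 members (43%, beside 70.7% of all genes).

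Start regions of 6 of the tissue-enriched genes are shown, a pair for each tissue, 1 with few CG pairs and 1 with many. Whether they span the range of each tissue's set was not examined. The sequences are RefSeq's for GRCm38.p6, from the C57BL/6J reference and not from these mice, and each covers 300 bases around an annotated start, most of them upstream, 5′ to 3′. Capitals mark a GC box (GGGGCGGGG) or a TATA box (TATAAA) on either strand, where one occurs.
Scn2a, chr2:65620519-65620818, plus strand: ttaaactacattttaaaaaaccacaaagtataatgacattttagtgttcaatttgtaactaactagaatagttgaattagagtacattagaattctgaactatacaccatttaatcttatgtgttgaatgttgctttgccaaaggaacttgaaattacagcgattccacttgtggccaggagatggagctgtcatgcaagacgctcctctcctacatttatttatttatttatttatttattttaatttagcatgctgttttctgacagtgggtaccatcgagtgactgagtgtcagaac
Kcnj10, chr1:172340960-172341259, plus strand: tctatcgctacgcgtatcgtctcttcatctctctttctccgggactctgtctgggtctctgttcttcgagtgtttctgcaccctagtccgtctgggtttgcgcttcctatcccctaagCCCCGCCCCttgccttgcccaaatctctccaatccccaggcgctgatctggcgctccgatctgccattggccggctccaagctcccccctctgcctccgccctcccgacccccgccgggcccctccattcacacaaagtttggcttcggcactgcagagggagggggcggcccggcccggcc
Cacna1d, chr14:30491107-30491406, minus strand: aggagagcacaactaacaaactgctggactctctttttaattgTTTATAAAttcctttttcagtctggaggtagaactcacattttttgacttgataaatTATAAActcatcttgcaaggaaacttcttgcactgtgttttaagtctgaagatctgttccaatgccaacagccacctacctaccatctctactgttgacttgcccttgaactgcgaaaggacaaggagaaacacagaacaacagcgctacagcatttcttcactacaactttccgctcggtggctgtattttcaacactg
Kcnh8, chr17:52602459-52602758, plus strand: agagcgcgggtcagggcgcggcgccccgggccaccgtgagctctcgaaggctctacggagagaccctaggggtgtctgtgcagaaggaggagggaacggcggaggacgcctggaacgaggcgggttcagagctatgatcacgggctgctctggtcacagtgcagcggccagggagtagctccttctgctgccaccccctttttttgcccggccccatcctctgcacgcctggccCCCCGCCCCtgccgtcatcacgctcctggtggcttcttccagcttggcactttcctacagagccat
Kcnk5, chr14:20181733-20182032, minus strand: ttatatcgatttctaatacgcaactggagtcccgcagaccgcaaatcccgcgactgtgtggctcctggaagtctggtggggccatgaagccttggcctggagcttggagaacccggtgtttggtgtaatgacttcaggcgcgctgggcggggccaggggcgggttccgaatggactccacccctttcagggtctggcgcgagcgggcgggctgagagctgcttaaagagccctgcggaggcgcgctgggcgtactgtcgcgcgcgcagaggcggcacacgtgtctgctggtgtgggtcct
Kcnmb1, chr11:33962763-33963062, plus strand: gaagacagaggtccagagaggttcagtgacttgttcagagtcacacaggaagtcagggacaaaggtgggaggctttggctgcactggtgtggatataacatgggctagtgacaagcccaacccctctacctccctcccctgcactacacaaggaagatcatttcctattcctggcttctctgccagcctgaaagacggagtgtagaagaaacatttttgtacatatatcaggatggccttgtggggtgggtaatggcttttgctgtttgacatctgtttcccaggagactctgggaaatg
The Scn2a region (1 of 2 annotated starts) held 3 CG pairs and the Kcnj10 region 21 with 1 GC box, so both kinds occurred among hypothalamic genes. The other Scn2a start region, not shown, held a TATA box. Among pituitary genes, the Cacna1d region (1 of 2 starts) held 4 CG pairs and 3 TATA box matches, a pair of them overlapping on opposite strands, and the Kcnh8 region 21 CG pairs and 1 GC box. Among ovarian genes, the Kcnk5 region held 26 CG pairs and the Kcnmb1 region 1. RefSeq start regions were matched for 83 members (113 regions), with a median of 9 CG pairs beside 7 over all 32851 regions. The GC box occurred in 13.3% of the members' regions and 11.4% of all, and the TATA box in 5.31% and 13.6%. The cAMP response element TGACGTCA occurred in 0 of the 113 (1.79% of all), and the SF-1 site CAAGGTCA in 0.885% (1.56% of all), in Kcnf1. These matches describe letters only.

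Sodium channel genes were high in hypothalamus, where 4 of 8 were above both other tissues: Scn1a, Scn2a, Scn8a and Scn9a. The median difference over the 8 was 1.02 against pituitary and 2.57 against ovary. Scn1a, the main sodium channel of inhibitory interneurons, ranged from 7.66 to 8.77 (median 7.92) on the 6 hypothalamus arrays, from 3.01 to 4.30 (median 3.69) in pituitary and from 2.30 to 3.79 (median 3.14) in ovary. Pituitary and ovary lay below the background mark on every array and overlapped each other, while hypothalamus was higher by 4.45 (SE 0.25, limma adjusted p = 7.41e-11) and 4.93 (SE 0.25, adjusted p = 4.64e-12). Scn2a, the sodium channel of the axon initial segment in excitatory neurons whose start region is shown above, ranged from 9.10 to 9.91 (median 9.26) in hypothalamus, from 5.69 to 6.23 (median 5.76) in pituitary and from 3.56 to 4.67 (median 3.87) in ovary. Its 3 tissues did not overlap, and each step was called: 3.57 (SE 0.16) from pituitary to hypothalamus and 1.86 (SE 0.16) from ovary to pituitary.

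Scn8a, the sodium channel of nodes of Ranvier and axon initial segments, had the same graded order, with tissue means of 8.26 ± 0.25, 6.74 ± 0.44 and 4.53 ± 0.32 (SD, n = 6 arrays) in hypothalamus, pituitary and ovary. Scn9a, known from pain-sensing neurons, was higher in hypothalamus than in pituitary by 1.98 (SE 0.15) and than in ovary by 2.67 (SE 0.15). Scn3a, the form that prevails in the embryonic brain, was expressed in both hypothalamus (7.73 ± 0.48) and pituitary (7.21 ± 0.62), which overlapped and were not called apart, and was higher in both than in ovary (5.26 ± 0.29).

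Scn7a, a channel-like protein that senses sodium rather than voltage, was the 1 sodium channel gene called lower in hypothalamus than in pituitary at 2-fold. It ranged from 5.82 to 6.77 (median 6.39) in hypothalamus, from 6.69 to 8.02 (median 7.45) in pituitary and from 6.12 to 7.11 (median 6.35) in ovary. The pituitary minus hypothalamus difference was 1.04 in size (-1.04 as hypothalamus minus pituitary, SE 0.20, limma adjusted p = 0.000327), just past 2-fold, and the difference over ovary, 0.86 (SE 0.20), did not reach 2-fold. The pituitary pools were lowest for it, at 6.88 (control) and 6.69 (stress) against 7.37 to 8.02 in single mice. Leaving out the high array of the control or stress hypothalamus, the high array of the control or stress pituitary, or the low control pituitary array took the hypothalamus minus pituitary difference to between -0.89 and -0.98 and ended the call. Scn10a and Scn11a, channels of sensory neurons, had means between 3.61 and 4.66; their hypothalamus minus pituitary differences of -0.80 (SE 0.21) and -0.56 (SE 0.13) had a limma adjusted p under 0.05 but did not reach 2-fold.

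Calcium channel genes divided by type only in part. The presynaptic channels and 2 of 3 low-voltage (T-type) genes were called above both other tissues in hypothalamus. Among the L-type genes Cacna1d was called above both others in pituitary, and Cacna1c, Cacna1f and Cacna1s were called in no contrast at 2-fold. Above both other tissues in hypothalamus were 5 of 10: Cacna1a, Cacna1b, Cacna1e, Cacna1g and Cacna1i. Cacna1e, the R-type channel, ranged from 7.82 to 8.33 (median 7.94) in hypothalamus, from 3.92 to 5.57 (median 4.67) in pituitary and from 3.79 to 4.27 (median 4.02) in ovary. Hypothalamus lay apart from both, by 3.28 (SE 0.20) and 4.02 (SE 0.20), and pituitary overlapped ovary. Cacna1b (N-type) and Cacna1a (P/Q-type), which drive transmitter release at nerve terminals, were graded. Cacna1b had means of 8.53 ± 0.17, 6.80 ± 0.37 and 5.04 ± 0.23 in hypothalamus, pituitary and ovary. For Cacna1a these were 8.03 ± 0.21, 6.70 ± 0.19 and 5.29 ± 0.08 (SD, n = 6 each).

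Cacna1d, the L-type channel that supports pacemaking in endocrine cells, was higher in pituitary than in hypothalamus and, like these genes, lowest in ovary. It ranged from 6.42 to 6.93 (median 6.76) in hypothalamus, from 7.44 to 8.33 (median 7.83) in pituitary and from 5.35 to 6.04 (median 5.80) in ovary. The 3 tissues did not overlap. Pituitary was higher than ovary by 2.12 (SE 0.15, limma adjusted p = 1.3e-09), and the hypothalamus minus pituitary difference was -1.18 (SE 0.15, adjusted p = 3.47e-06). Cacna1c, the L-type channel of heart, smooth muscle and neurons, had means of 7.87 ± 0.20, 7.44 ± 0.31 and 6.98 ± 0.11; it differed between all tissues at a limma adjusted p under 0.05 but by less than 2-fold. Cacna1f, a channel of photoreceptors, and Cacna1s, the skeletal muscle channel, had means between 4.34 and 5.12.

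The 3 T-type genes, whose channels open near the resting potential and support burst firing, did not share a pattern. Cacna1g and Cacna1i were graded, with hypothalamus higher than pituitary by 1.93 (SE 0.24) and 1.48 (SE 0.21). The control pituitary pool had the highest pituitary value of Cacna1g, 7.14, with the stressed pool next at 6.35 and the single mice between 5.09 and 5.60. Cacna1h was expressed in hypothalamus (7.14 ± 0.35) and ovary (7.01 ± 0.17) and was lower in pituitary (6.00 ± 0.41), with pituitary minus ovary at -1.01 (SE 0.17, limma adjusted p = 8.33e-05). Hypothalamus and ovary overlapped for Cacna1h and were not called apart, with a difference of 0.13 (SE 0.17).

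**Figure D2:**
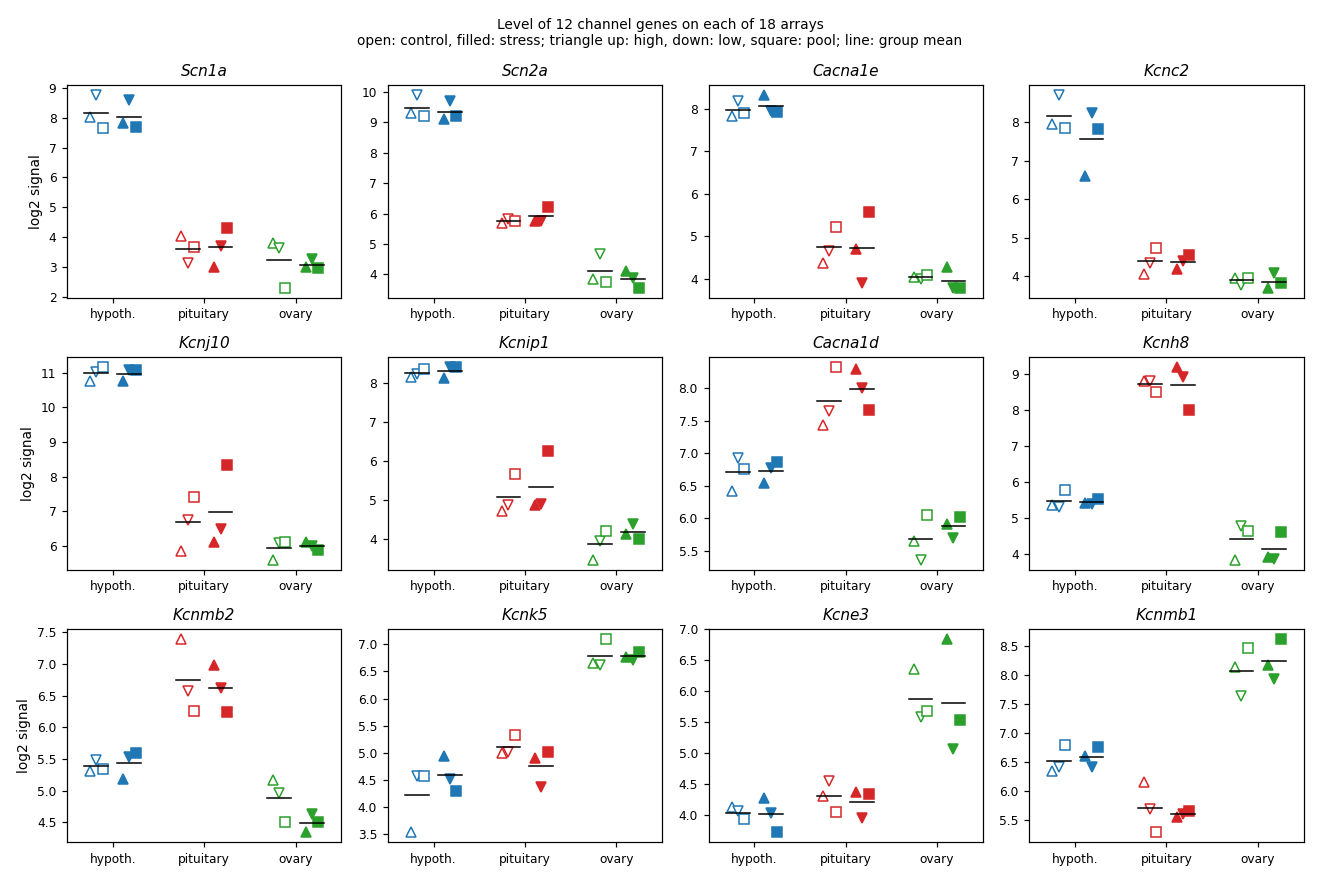
Each panel shows 1 channel gene's log2 signal on the 18 arrays by tissue; open symbols are control and filled symbols stress, the triangle up is the high mouse, the triangle down the low mouse and the square the pool, and lines are group means. The first 6 genes are highest in hypothalamus, Cacna1d, Kcnh8 and Kcnmb2 in pituitary, and Kcnk5, Kcne3 and Kcnmb1 in ovary, and control and stress symbols intermingle within tissues.

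Of the 26 pore-forming Kv genes, 13 were above both other tissues in hypothalamus: Kcna1, Kcna2, Kcna3, Kcna6, Kcnc1, Kcnc2, Kcnc4, Kcnd2, Kcnh1, Kcnh5, Kcnh7, Kcnq3 and Kcnq5. The family's median difference was 0.81 against pituitary and 1.64 against ovary. Kcnc2 and Kcnc1 encode the high-threshold channels of fast-spiking neurons. Kcnc2 ranged from 6.59 to 8.71 (median 7.90) in hypothalamus, from 4.07 to 4.75 (median 4.37) in pituitary and from 3.69 to 4.07 (median 3.88) in ovary. Its hypothalamus arrays spread over more than 2 log2 units and still lay above every other array, by 3.48 (SE 0.20) over pituitary and 3.98 (SE 0.20) over ovary. Kcnc1 ranged from 7.28 to 8.64 (median 7.60) in hypothalamus, from 4.59 to 5.76 in pituitary and from 4.18 to 4.68 in ovary, and its 2 highest pituitary values, 5.76 and 5.64, were the pools.

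Kcna6, a Shaker-type delayed rectifier, was higher in hypothalamus by 3.08 (SE 0.17) over pituitary and 3.03 (SE 0.17) over ovary; its second cluster, with tissue means of 5.44, 4.81 and 4.99, showed the same order with smaller differences. Kcnd2, the main somatodendritic A-type channel, was graded, with means of 9.56 ± 0.27, 8.15 ± 0.28 and 6.73 ± 0.10 and no overlap between tissues. Kcnq3, a subunit of the muscarine-sensitive M-current, ranged from 7.42 to 8.38 in hypothalamus and was higher than in pituitary by 2.59 (SE 0.24) and than in ovary by 3.29 (SE 0.24). The call for Kcna3 was close to the threshold, with a hypothalamus minus pituitary difference of 1.04 (SE 0.14) that fell under 2-fold, to between 0.95 and 0.98, without the low control hypothalamus, the low stressed hypothalamus or the stressed pituitary pool array. For Kcnq5, the mean of its 2 clusters gave a hypothalamus minus ovary difference of 0.65 in place of 1.27, under 2-fold.

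Kcnh8, an ether-a-go-go-like (Elk) channel, stood apart from the rest of the family. It ranged from 5.31 to 5.79 (median 5.40) in hypothalamus, from 8.00 to 9.21 (median 8.82) in pituitary and from 3.83 to 4.76 (median 4.26) in ovary. The pituitary arrays lay above all others with a wide gap, the difference being 4.45 (SE 0.20, limma adjusted p = 2.5e-12) over ovary and -3.25 (SE 0.20, adjusted p = 2.11e-10) for hypothalamus minus pituitary. The relatives Kcnh5 and Kcnh7 were graded, with hypothalamus above pituitary; ovary was lowest for all 3 genes. Kcnh2, the erg channel known from cardiac repolarisation and pituitary cells, had means of 7.95 ± 0.33, 7.97 ± 0.52 and 7.25 ± 0.31 and was called in no contrast. Among the other Kv genes, Kcna5, Kcnb2 and Kcnd3 were above ovary in both neural tissue and pituitary. Kcna4 is not assigned an order here: its cluster of highest mean read 8.27, 8.61 and 9.13 in hypothalamus, pituitary and ovary, while its other cluster read 6.52, 4.95 and 3.86.

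Electrically silent Kv subunits, which form no channel alone and modify Kcnb-type channels, showed few differences. Of 10, Kcnv1 was above both other tissues in hypothalamus, by 1.18 (SE 0.17) over pituitary and 1.21 (SE 0.17) over ovary. Kcng3 was higher in hypothalamus than in pituitary, by 1.11 (SE 0.16), and Kcnf1 higher than in ovary, by 1.72 (SE 0.16). The remaining 7 were called in no contrast.

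Auxiliary subunits differed by type. The potassium channel-interacting proteins of the Kcnip series, calcium-binding partners of Kcnd channels, were mostly hypothalamic: Kcnip1, Kcnip2 and Kcnip4 were graded, and Kcnip3 was above ovary in hypothalamus and pituitary. Kcnip1 ranged from 8.12 to 8.42 (median 8.31) in hypothalamus, from 4.71 to 6.26 (median 4.88) in pituitary and from 3.46 to 4.40 (median 4.06) in ovary. The 2 highest pituitary values were again the pools, 5.68 (control) and 6.26 (stress), and the hypothalamus minus pituitary difference was 3.08 (SE 0.20). Kcnip4 had means of 9.36 ± 0.39, 7.07 ± 0.62 and 4.71 ± 0.14. Kcnab2, a cytoplasmic beta subunit of Shaker-type channels, was higher in hypothalamus by 2.55 (SE 0.15) and 2.92 (SE 0.15), and its relative Kcnab1 was called in no contrast.

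The single-pass Kcne subunits were low or ovarian, apart from Kcne1l, which was above both other tissues in hypothalamus. Kcne3, a partner of Kcnq1 in epithelia, ranged from 3.72 to 4.27 (median 4.04) in hypothalamus, from 3.95 to 4.55 (median 4.32) in pituitary and from 5.06 to 6.84 (median 5.63) in ovary. All ovary arrays lay above the others, the 2 high-yield mice being highest at 6.36 (control) and 6.84 (stress), and the ovary difference was -1.82 (SE 0.20) as hypothalamus minus ovary and -1.59 (SE 0.20) as pituitary minus ovary. Kcne4 was higher in ovary than in pituitary, with pituitary minus ovary at -1.11 (SE 0.15). Kcne1 and Kcne2 had means between 3.85 and 4.40, under the mark in all tissues.

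The beta subunits of the large-conductance (BK) channel were highest in different tissues, while the pore gene was called in no contrast. Kcnma1, the BK pore, had means of 8.55 ± 0.35, 8.32 ± 0.28 and 8.33 ± 0.23 in hypothalamus, pituitary and ovary. Kcnmb1, the smooth muscle subunit, ranged from 6.33 to 6.78 (median 6.50) in hypothalamus, from 5.29 to 6.14 (median 5.63) in pituitary and from 7.62 to 8.62 (median 8.15) in ovary. The ovary arrays did not overlap the others, with pituitary minus ovary at -2.50 (SE 0.16, limma adjusted p = 2.46e-10). Kcnmb2, an inactivating subunit of endocrine cells and neurons, ranged from 5.18 to 5.60 (median 5.42) in hypothalamus, from 6.25 to 7.40 (median 6.60) in pituitary and from 4.34 to 5.17 (median 4.57) in ovary. Pituitary lay above the others, by 1.99 (SE 0.16) over ovary and with hypothalamus minus pituitary at -1.27 (SE 0.16). Kcnmb4, the neuronal subunit, had means of 6.53, 6.85 and 5.97 and was called in no contrast, as was Kcnmb3. Smooth muscle and pericyte markers averaged between 8.76 and 9.02 on the ovary arrays, against 7.09 to 7.96 in hypothalamus and 6.67 to 7.68 in pituitary; all 7 are above the mark in each tissue, and their part in the Kcnmb1 difference was not tested.

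Inward rectifiers carry potassium better into than out of the cell. Of 14, Kcnj5, Kcnj9, Kcnj10 and Kcnj16 were above both other tissues in hypothalamus. Kcnj10, the channel by which astrocytes clear potassium, ranged from 10.75 to 11.17 (median 11.04) in hypothalamus, from 5.86 to 8.35 (median 6.63) in pituitary and from 5.60 to 6.13 (median 6.04) in ovary. The highest pituitary values, 7.43 and 8.35, were the control and stressed pools, and hypothalamus was still higher than every pituitary array, by 4.14 (SE 0.26) on average. Astrocyte markers, 6 of 6 above the mark there, averaged 7.13 in the stressed pituitary pool against 5.87 to 6.27 on the other pituitary arrays; their part in the Kcnj10 spread was not tested. Kcnj16, its heteromeric partner, was higher in hypothalamus than in pituitary by 2.77 (SE 0.23) and than in ovary by 1.36 (SE 0.23), and was higher in ovary than in pituitary.

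The 4 G protein-gated subunits, through which inhibitory receptors hyperpolarise cells, split in pairs. Kcnj9 and Kcnj5 were hypothalamic, by 2.53 (SE 0.12) and 1.65 (SE 0.14) over pituitary and 3.24 (SE 0.12) and 1.56 (SE 0.14) over ovary. Kcnj3 and Kcnj6 were present in both hypothalamus and pituitary and low in ovary. Kcnj6 ranged from 5.67 to 6.18 (median 5.93) in hypothalamus, from 5.76 to 6.20 (median 6.08) in pituitary and from 3.19 to 4.30 (median 3.85) in ovary. Its first 2 tissues overlapped and differed by -0.11 (SE 0.15), and both lay above ovary, by 2.10 and 2.21 (SE 0.15 each). Kcnj3 had means of 7.75 ± 0.26, 7.58 ± 0.11 and 5.49 ± 0.39; its dimmer second cluster read 4.75, 5.10 and 4.02.

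The pores of ATP-sensitive potassium channels, which tie the membrane potential to metabolism, differed from each other. Kcnj8, the vascular form, had means of 6.00 ± 0.28, 6.83 ± 0.26 and 7.62 ± 0.21 in hypothalamus, pituitary and ovary, and hypothalamus minus ovary was called at -1.62 (SE 0.13). Kcnj11, the form of neurons and pancreatic beta cells, had means of 5.91, 5.34 and 5.02 and was called in no contrast.

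K2P channels carry the background potassium current. Of 13, Kcnk9 and Kcnk4 were above both other tissues in hypothalamus and Kcnk5 in ovary. Kcnk9, an acid-sensitive (TASK) channel, was graded with means of 7.92 ± 0.40, 6.14 ± 0.53 and 4.23 ± 0.22. Kcnk5, an alkaline-activated relative, ranged from 3.54 to 4.95 (median 4.55) in hypothalamus, from 4.38 to 5.33 (median 5.0) in pituitary and from 6.62 to 7.10 (median 6.74) in ovary. All ovary arrays were above all others, with hypothalamus minus ovary at -2.38 (SE 0.16, limma adjusted p = 2.46e-10). Kcnk2, a mechanosensitive (TREK) channel, was not called apart between hypothalamus (7.68 ± 0.16) and pituitary (7.81 ± 0.27) and was higher in both than in ovary (6.44 ± 0.14), as were Kcnk1, Kcnk10 and Kcnk12. The Kcnk4 difference over pituitary, 1.07 (SE 0.18), fell under 2-fold, to between 0.92 and 0.97, without the control or stressed hypothalamus pool or the low control pituitary array, and was 0.85 without any pool.

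Among calcium- and sodium-activated potassium channels, Kcnn3 and Kcnt1 were above both other tissues in hypothalamus. Kcnn3, a small-conductance channel of the afterhyperpolarisation, ranged from 7.45 to 7.99 (median 7.74) in hypothalamus, from 5.38 to 6.59 (median 6.30) in pituitary and from 4.75 to 5.12 (median 4.81) in ovary, without overlap. Kcnt2, a sodium-activated channel, had a different order, with means of 6.58 ± 0.24, 4.47 ± 0.71 and 7.57 ± 0.24; ovary and hypothalamus were both higher than pituitary, and ovary was above hypothalamus by 0.99 in size (-0.99 as hypothalamus minus ovary, SE 0.20), short of 2-fold. Kcnn1, Kcnn2, Kcnn4 and the sperm channel gene Kcnu1 were called in no contrast. Neither were both noncoding transcripts: Kcnq1ot1, the imprinted antisense RNA of the Kcnq1 locus (how the array tells strands apart was not checked), with means of 5.24, 6.09 and 5.34, and Kcnd3os, with means of 4.65, 5.01 and 4.57.

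**Figure D3:**
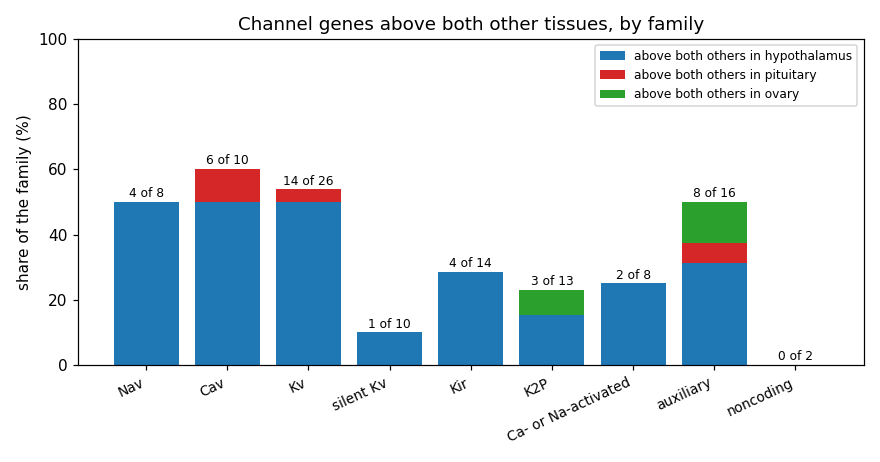
The bars give, for each channel family on the x axis, the share of its genes (%) called higher in 1 tissue than in both others, stacked by tissue. The hypothalamus bars are tallest for the Kv (13 of 26 genes), calcium channel (5 of 10) and sodium channel (4 of 8) families; ovary appears only for K2P and auxiliary genes.

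Some of these levels were higher in pools than in single mice. Over the 36 hypothalamic members, each pool was set against the mean of the single mice of both treatments in its tissue. The control pituitary pool was above that mean for 28 (median excess 0.43) and the stressed pool for 34 (median excess 0.46). The control and stressed ovary pools were above it for 24 (median 0.05) and 17 (median -0.03). Over all 107 members, the control and stressed pituitary pools were above it for 67 (median 0.11) and 71 (median 0.21). The share over all genes was not computed. Neuron markers averaged 8.05 in the stressed pituitary pool and 7.27 in the control pool against 6.65 to 7.11 in single mice. Their part in the members' values was not tested. The graded order was found for 12 members without the pools, in place of 17, and also for 12 without the stressed pituitary pool alone.

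Other channel genes, from a list apart from the rule, were read for comparison: 55 of 61 auxiliary, cation and chloride channel and scaffold genes had a cluster. They were higher in hypothalamus than in pituitary for 30 and lower for 2, and higher than in ovary for 39 and lower for 5. In pituitary, 21 were higher than in ovary and 5 lower. The sodium leak channel Nalcn and its partners Unc79 and Unc80 were above ovary in both hypothalamus (by 4.54, 3.19 and 4.38) and pituitary (by 3.65, 3.83 and 3.61). In ovary Abcc9, the sulfonylurea receptor that pairs with Kcnj8, was above both other tissues, with hypothalamus minus ovary at -2.51 and pituitary minus ovary at -1.80. Members also spanned longer genomic loci, with a median of 46.7 kb over all 107 and 98.9 kb over the 36 hypothalamic members beside 18.7 kb over all protein-coding genes.

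No channel gene was called changed after transport stress. In the limma fits on the 6 arrays of each tissue, 0 of 107 members had an adjusted p under 0.05 in hypothalamus, pituitary or ovary (0% of all genes in each), and the lowest adjusted p of a member was 1, 1 and 0.999. At an unadjusted p under 0.05, 0 members passed in any tissue, beside 1.1%, 1.33% and 2.67% of all genes. With oocyte class as a block (high with high, low with low, pool with pool) 0 members passed after adjustment, and 2, 1 and 8 had an unadjusted p under 0.05, beside 4.16%, 5% and 9.91% of all genes. The median stress minus control difference over the members was -0.03 for the hypothalamus, 0.04 for the pituitary and -0.03 for the ovary, beside -0.02, -0.04 and -0.02 over all genes. Differences above 0 numbered 41 (38.3%, beside 44.5% of all genes), 60 (56.1%, beside 43.6%) and 47 (43.9%, beside 46.8%).

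Single differences were small and imprecise. They ran from -0.61 (Kcnc2) to 0.36 (Kcnk5) in hypothalamus, from -0.43 (Kcnd1) to 0.81 (Kcnt2) in pituitary and from -0.39 (Kcnmb2) to 0.51 (Scn7a) in ovary, and none reached 2-fold. Half-widths of the 95% intervals had a median of 0.51, 0.60 and 0.47 in the 3 tissues. The 20 measured genes of a list of well-known channels, from Scn2a and Cacna1d to Kcnj10 and Kcnma1, lay between -0.38 and 0.22 in hypothalamus, where 3 were above 0, between -0.36 and 0.37 in pituitary (11 above 0) and between -0.33 and 0.27 in ovary (9 above 0). Among the hypothalamic-high genes of that list, Kcnj10 read 10.76, 11.03 and 11.17 in control and 10.75, 11.06 and 11.07 in stressed hypothalamus (high, low, pool), with overlapping groups and a difference of -0.02 (95% interval -0.48 to 0.44).

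**Figure D4:**
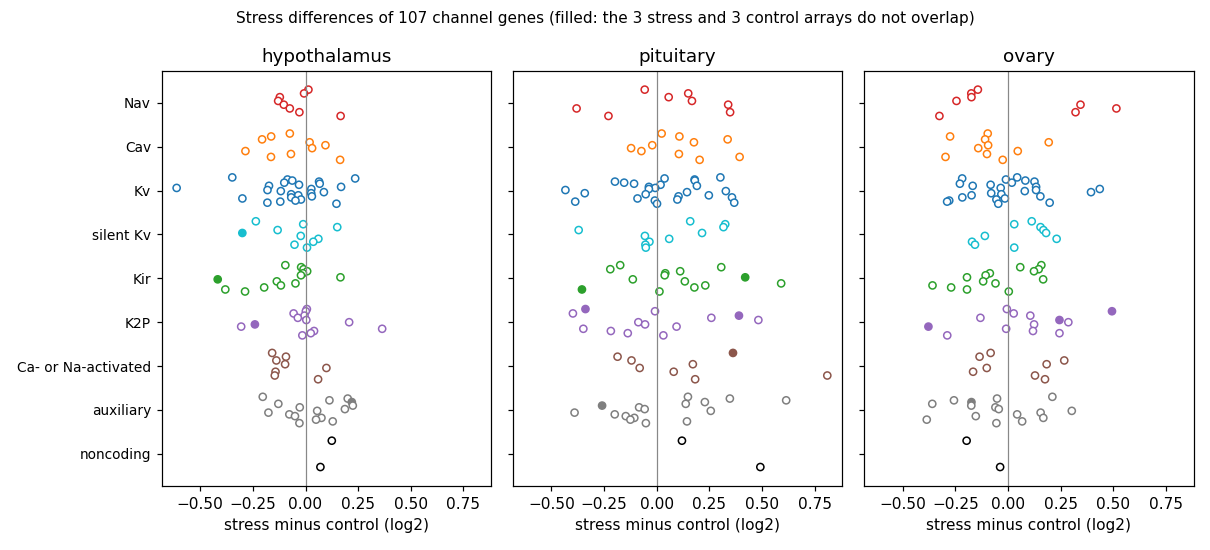
The x axis is the stress minus control difference (log2) of each of the 107 channel genes in 3 panels by tissue, and the rows are families; filled points are genes whose 3 stress and 3 control arrays do not overlap. Points lie on both sides of 0 in most families. The hypothalamus panel has 4 filled points, the pituitary panel 6 and the ovary panel 4, and the point farthest from 0 is Kcnt2 in pituitary.

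In hypothalamus the 3 stress and 3 control arrays of 4 members did not overlap, beside 4.54% of all genes (4 of 107 are 3.74%); stress was higher for 1 (1.94% of all genes) and lower for 3 (2.6%). Kcnj2, the strong inward rectifier, read 6.42, 6.54 and 6.30 in the control high, low and pool arrays and 5.71, 6.02 and 6.27 under stress. All stress values were lower, the pools by only 0.02, and the difference was -0.42 (95% interval -0.89 to 0.05, limma unadjusted p = 0.0763). Kcnk2 read 7.65, 7.86 and 7.90 in control and 7.63, 7.57 and 7.48 under stress, a difference of -0.24 (95% interval -0.65 to 0.17). Kcng4, a silent subunit, differed by -0.30 (95% interval -0.72 to 0.12), and Kcne1, below the mark, by 0.22 (95% interval -0.20 to 0.64). The largest difference, that of Kcnc2, rested on overlapping groups: 7.96, 8.71 and 7.84 in control and 6.59, 8.24 and 7.83 under stress. The high mice differed by -1.36 (stress minus control), and without that stressed array the Kcnc2 difference was -0.13.

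Markers of neighbouring brain regions were lower on average in the stressed single mice of the same comparison, and not in the pool. Of 9 measured thalamus and cortex markers, 8 were lower in stressed than in control hypothalamus (median -0.41). List means were 7.17 to 7.78 in control and 6.57 to 7.29 under stress, with summed signals of 2136 to 3383 and 1685 to 2899.7. By class, the means in control and stress were 7.38 and 6.57 (high), 7.78 and 7.29 (low), and 7.17 and 7.23 (pool). The lowest of these means, 6.57, was that of the stressed high mouse, which was also lowest for Kcnc2 and Kcnj2. Pericyte and smooth muscle markers were lower for 6 of 7 (median -0.24) and oligodendrocyte markers for 5 of 5 (median -0.19). Endothelium markers were lower for 5 of 6 (median -0.15), astrocyte markers for 5 of 6 (median -0.10) and neuron markers for 7 of 10 (median -0.06). Hypothalamic markers were lower for 2 of 8 and macrophage markers for 2 of 5. The part of these lists in the members' differences was not tested.

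In pituitary the groups of 6 members did not overlap (5.61%, beside 6.08% of all genes), with stress higher for 3 (2.4% of all genes) and lower for 3 (3.68%). Higher under stress were Kcnj16, with 3.70, 3.70 and 3.64 in control and 4.16, 3.81 and 4.34 under stress, Kcnk13 and Kcnma1. The Kcnj16 difference was 0.42 (95% interval -0.09 to 0.93), on values below the background mark. Kcnma1 read 7.80, 8.29 and 8.34 in control and 8.66, 8.40 and 8.47 under stress, a difference of 0.36 (95% interval -0.17 to 0.89), most of it between the high mice. Lower under stress were Kcnk1, Kcnj8 and Kcne2. Kcnk1, a weakly rectifying K2P channel, read 9.35, 9.46 and 9.27 in control and 9.09, 9.07 and 8.91 under stress, and the class differences of -0.26, -0.40 and -0.36 were alike. Its mean difference was -0.34 (95% interval -0.80 to 0.12, limma unadjusted p = 0.13). Kcnj8 differed by -0.36 (95% interval -0.87 to 0.16).

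Kcnt2 had the largest pituitary difference without separating the groups. It read 3.94, 3.98 and 4.28 in control and 3.91, 5.13 and 5.58 under stress, so the stressed low mouse and pool were high and the stressed high mouse was not. The difference was 0.81 (95% interval -0.10 to 1.72, limma unadjusted p = 0.0757), and 0.56 without the pools. Ovarian markers were raised in the same stressed pool, as given above, and astrocyte markers were lower under stress for 0 of 6; Kcnt2 itself was highest in ovary. Their part in the Kcnt2 difference was not tested. The noncoding Kcnq1ot1 read 5.43, 5.94 and 6.15 in control and 6.72, 6.32 and 5.97 under stress, with overlap and a difference of 0.49 (95% interval -0.16 to 1.14).

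In ovary the groups of 4 members did not overlap (3.74%, beside 8.77% of all genes). Kcnk10, a TREK-type channel, read 4.38, 5.07 and 4.98 in control and 5.34, 5.13 and 5.45 under stress, a difference of 0.49 (95% interval -0.02 to 1.0). Kcnk4 read 5.68, 5.81 and 5.61 in control and 5.40, 5.50 and 5.07 under stress, a difference of -0.38 (95% interval -0.80 to 0.04). Kcnk16 (0.24) and Kcne1 (-0.17) lay near or below the mark. Scn7a had the largest difference, with 6.39, 6.32 and 6.12 in control and 6.94, 7.11 and 6.32 under stress. The stressed single mice were high and the stressed pool lay within the control range, and the difference was 0.51 (95% interval -0.01 to 1.04, limma unadjusted p = 0.0544).

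**Figure D5:**
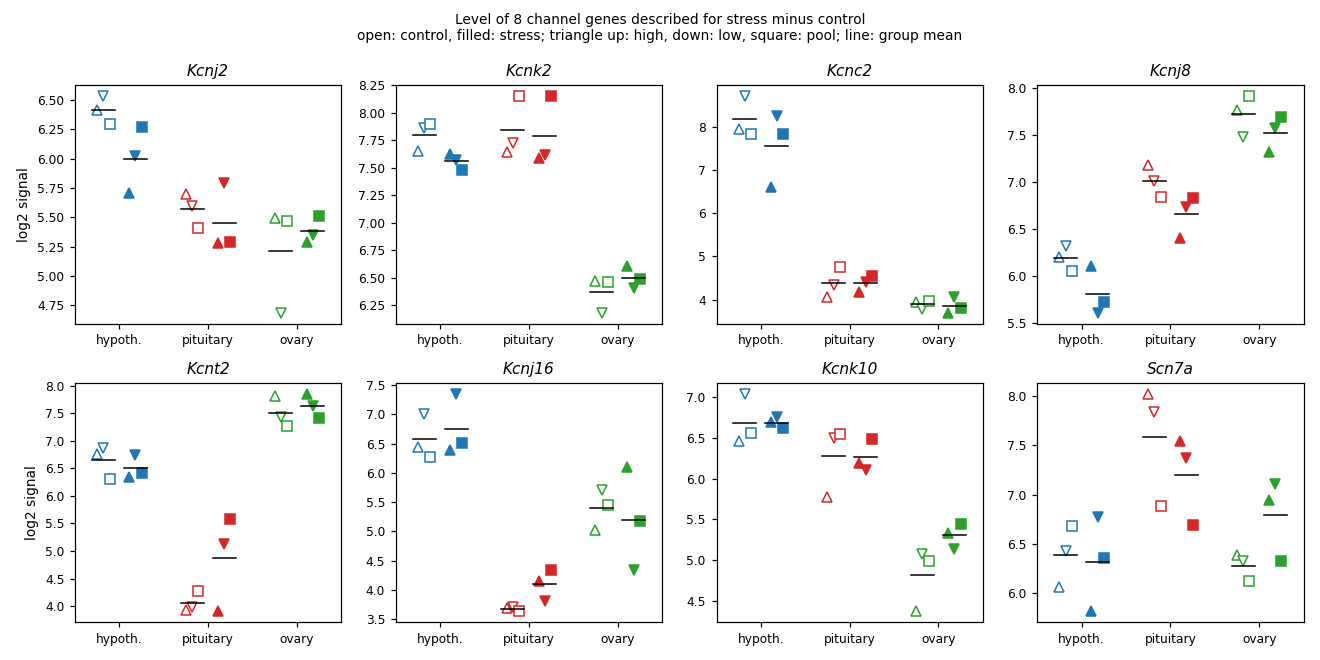
Each panel shows the log2 signal of 1 of 8 channel genes on the 18 arrays by tissue, with open symbols for control, filled symbols for stress, triangles up for the high mouse, triangles down for the low mouse, squares for the pool and lines for group means. The Kcnj2 stress values in hypothalamus lie below the control values, and the Kcnt2 stress values in pituitary spread from 3.91 to 5.58.

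Oocyte class as a block narrowed some unadjusted values without yielding a call. In hypothalamus Kcnc2 and Kcnj2 had an unadjusted p of 0.048 and 0.046, in pituitary Kcnt2 of 0.021, and in ovary 8 members passed 0.05: Scn7a (0.014), Kcnd3, Kcnk4, Kcnc4, Kcnj5, Kcnk10, Kcne1l and Scn8a. Their directions were mixed, with Scn7a, Kcnd3, Kcnc4, Kcnk10 and Scn8a higher and Kcnk4, Kcnj5 and Kcne1l lower under stress. These shares, 1.87%, 0.935% and 7.48% of the members, were below those of all genes given above.

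Whether the stress difference itself differed between tissues was tested with the interaction terms of the 18-array limma fit. For 0 of 107 members was the adjusted p under 0.05 in any of the 3 tissue pairs (0% of all genes). At an unadjusted p under 0.05, 4 members passed between hypothalamus and pituitary (3.74%, beside 3.49% of all genes): Cacna1c (-0.54), Kcnk5 (0.71), Kcne2 (0.48) and Kcnt2 (-0.96). Of these, Kcne2 lay below the background mark in every tissue and Kcnk5 below it in hypothalamus. None passed between hypothalamus and ovary (2.24% of all genes). Between pituitary and ovary Scn7a passed, at -0.90 (0.935% of the members, beside 3.63% of all genes).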

How the data were processed

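The table used holds log2 signals of 41345 array clusters on 18 arrays, deposited by the authors; the submitters' processing notes name Transcriptome Analysis Console, with no version. Background correction, normalization and centring are not given in the sources used here, and the log base was inferred from the values (highest 13.66, above 11.09, the natural log of the largest 16-bit intensity). Replicates were separate RNA samples per the labels. Clusters with no annotated gene (16010) or several (1814) were left out, and the cluster of highest mean represented a gene. No columns belonged to unlisted samples, and 0 of 153 array pairs were identical.

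Differences were fitted with limma 3.58.1 in R 4.3.3: tissues on 18 arrays with the animal or pool as a random block (consensus correlation 0.27), stress on the 6 arrays of a tissue without a block. The fits were also run on simulated data. The stress changes placed there were larger than any member's stress difference here. Random signs given to each value removed the correlation between arrays of an animal. The simulation therefore cannot speak to stress differences of the size seen here. Figures used matplotlib 3.10.9 under Python 3.11.15. Arrays of the same animal or pool correlated at 0.15 to 0.62 between tissues in their deviations from group means, against -0.55 to 0.39 for unmatched arrays. Arrays of the same oocyte class correlated at 0.36 to 0.73 between control and stress of a tissue, against -0.52 to 0.32 across classes. The highest values of both kinds were between pools. Among single mice, matched and unmatched values overlapped for animals. For classes the matched values of single mice were higher in each tissue. In hypothalamus they were 0.405 and 0.52 against 0.135 and -0.05, and in ovary 0.373 and 0.374 against 0.19 and 0.263. In pituitary they lay close, at 0.37 and 0.36 against 0.32 and 0.31. A pairing of single mice by animal is thus not shown. Single mice of a class were more alike across treatments, by little in pituitary. The blocked stress values therefore stand beside the unblocked ones. The members and lists were chosen with earlier results of these data known. Genes given in detail were, per family and tissue, up to 3 called above both other tissues, those called nowhere in small sets, a list of well-known channels and the stress extremes; other genes named, such as Kcnt2 and Kcna3 by tissue, were chosen after their values were seen.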

Additional observations from a re-analysis of the deposited data

Results flagged for a closer look

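Over the 57 channel genes given in detail by tissue, the highest or lowest of the 6 arrays of a tissue lay far from the rest in 9 of 171 sets, and chance gives about 1 in 20. In 3 of these the stressed pituitary or ovary pool stood apart: Kcnab2 read 6.697 in the stressed pituitary pool against 5.63 to 6.022 on the other pituitary arrays, Scn2a read 6.234 there against 5.686 to 5.833, and Cacna1f read 4.09 in the stressed ovary pool against 4.436 to 4.546. Kcnu1 read 2.755 in the control pituitary pool against 3.295 to 3.476 on the other pituitary arrays. Single mice stood apart in 5 sets. The low control mouse was apart in hypothalamus for Kcnab1, at 6.786 against 6.04 to 6.311, and for Kcne2, at 3.416 against 3.833 to 4.05, and in ovary for Kcnd2, at 6.531 against 6.734 to 6.812. Cacna1a read 7.619 in the hypothalamus of the low stressed mouse against 8.038 to 8.191, and Kcnn3 read 5.375 in the pituitary of the high control mouse against 6.251 to 6.589.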

How the results depend on the processing

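With 3 arrays a group, small stress differences could not be measured: no setting that was run gave a stress or interaction call for a member. Without the animal as a replicate block the tissue counts were 40 higher and 4 lower (hypothalamus against pituitary), 49 and 4 (hypothalamus against ovary), and 31 and 8 (pituitary against ovary), as with it, and with oocyte class as a replicate block 0 members passed for stress in each tissue. Among genes at or above the median level, 2 members were lower in hypothalamus and 4 lower in pituitary than in ovary, 1 was above both others in ovary and 9 had no call; that setting tests fewer genes. Without the pools 5 members were above both others in ovary. By adjusted p alone, 18 members were lower in hypothalamus than in pituitary (19.9% of all genes) and 10 lower than in ovary (25.7%). In pituitary 55 were higher than in ovary (19.2%). At that setting 13 and 8 were above both others in pituitary and ovary, 29 were graded and 16 had no call. The share over all genes is not given for these last counts, nor for the tissue counts of the other alternatives. At 4-fold, 17 were higher and 1 lower in hypothalamus than in pituitary, 1 lower than in ovary, 7 higher and 3 lower in pituitary than in ovary, 15, 1 and 0 above both others in hypothalamus, pituitary and ovary, 1 graded and 3 over ovary in both. With 1 array left out, members above both others numbered 35 to 37, 3 to 4 and 3 to 4, and graded members 12 to 18. Centring arrays moved the median of all genes by 0.14 (hypothalamus minus pituitary) and -0.11 (pituitary minus ovary) and gave 44 members higher and 3 lower in hypothalamus than in pituitary. Alternatives were run for 1 tissue contrast of each of the 107 members, and among these contrasts the sign turned for 5. Hypothalamus minus pituitary of Kcnk7 (-0.04) was 0.020 after quantile normalization, 0.096 after centring, 0.040 on stress arrays alone and -0.18 to 0.064 with 1 array left out. That of Kcnk15 (-0.07) was 0.062 after centring, 0.10 with array weights, 0.048 without pools, 0.073 on control arrays alone and -0.16 to 0.020 with 1 array left out. That of Kcnma1 was -0.058 as the mean of its clusters and -0.038 on stress arrays alone. Hypothalamus minus ovary of Kcna4 (-0.86) was 0.90 as the mean of its clusters, which disagree. Pituitary minus ovary of Kcnj15 (-0.07) was 0.025 without pools and -0.14 to 0.017 with 1 array left out. Apart from the clusters of Kcna4, the cause was not tested.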
